A study of Mus musculus with 6 samples.

Results

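The genes described here are the Wnt ligands and their cell-surface receptors, measured in embryo heads of a Prdm15 tm1a mouse line. They were chosen by symbol from the deposited table of 24062 genes: every Wnt gene (19), every Frizzled gene (10), the co-receptors Lrp5 and Lrp6 (2), and Ror1, Ror2 and Ryk (3), 34 genes in all. Heads were dissected from C57BL/6 embryos at embryonic day 8.5, and polyA-selected RNA was sequenced as stranded paired-end libraries. The mutant embryos were Prdm15 tm1a-/-, the heterozygous embryos Prdm15 tm1a+/- and the wild-type embryos Prdm15 tm1a+/+, with 2 libraries each; tm1a names a knockout-first insertion, present in every cell. The labels give no litter, and p-values here speak only of the variation among these 6 libraries.

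Wnt proteins are secreted, lipid-modified signals. They bind Frizzled receptors together with Lrp5 or Lrp6 to stabilise beta-catenin, or they act through Frizzled, Ror and Ryk proteins on cell polarity and movement. In the early head, Wnt signalling from the midbrain, the dorsal neural tube and tissue behind the brain promotes posterior identity, while the forebrain forms where Wnt inhibitors keep the signal low.

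Reads assigned to genes numbered 29412227 to 40439234 per library. The count files attached to 1 wild-type and 1 mutant sample bear each other's titles; each file was used under the title in its name, because its zeros and its ratios to the deposited RPKM (reads per kilobase of gene, scaled to library size) matched the column of that title, with 0 genes differing in zero status, against 1646 for the sample it was attached to. Prdm15 itself stood at 25.5 to 32.0 CPM (counts scaled to a common library size) in mutant, 28.2 to 32.1 in heterozygous and 33.0 to 35.9 in wild-type libraries. Its log2 fold change in mutant against wild type was -0.21 (SE 0.12, adjusted p = 0.221), so whole-gene counts of Prdm15 did not check the genotype labels. Xist, the RNA of the inactive X chromosome, was at 1226 and 1098 CPM in the mutant libraries, at 0.352 and 0.271 in the heterozygous ones, and at 0.272 and 1333 CPM in the wild-type ones, so genotype and Xist status cannot be told apart between the mutant and heterozygous libraries. The 3 libraries with high Xist are also the 3 whose sample titles begin with the same pair of digits. A term for Xist is therefore also a term for that title series, and the 2 cannot be told apart. Within a genotype only the wild-type pair differs in Xist, so under that term mutant against wild type rests on wild-type replicate 2.

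Markers of the head's own tissues, neural plate, head mesenchyme and surface ectoderm, were detected in every library with none at 0. Lists of other tissues moved with genotype, as the plot of marker lists shows. Markers counted below as higher or lower did not overlap between both mutant and both wild-type libraries. Over all 15187 genes tested, by RPKM, 34.1% lay higher in this way and 36.9% lower. Heart markers summed to 1083 to 1899 CPM in mutant, 1620 to 2578 in heterozygous and 69.9 to 216 in wild-type libraries, and 9 of 9 were higher in both mutant than in both wild-type libraries. Yolk sac endoderm markers summed to 4052 to 4812 CPM in mutant, 1852 to 2568 in heterozygous and 6.23 to 12.7 in wild-type libraries, with 10 of 10 higher in mutant; Apoa4 was at 0 in wild-type replicate 1. For trunk and tailbud the sums were 121 to 288, 86.3 to 89.0 and 34.3 to 60.4 CPM in mutant, heterozygous and wild-type libraries. Here 9 of 10 markers were higher in mutant. In edgeR's quasi-likelihood test 4 of the 9 tested passed as higher at an adjusted p under 0.05. Msgn1 was at 0 in both heterozygous libraries and in wild-type replicate 2, and Cdx4 in heterozygous replicate 1. Most neural lists were lower. Forebrain markers summed to 44.3 to 80.7 CPM in mutant, 174 to 200 in heterozygous and 231 to 310 in wild-type libraries (10 of 10 lower in mutant), midbrain and isthmus markers to 70.3 to 108, 170 to 199 and 223 to 270 (6 of 8), and neural progenitor markers to 502 to 531, 725 to 861 and 954 to 1004 (10 of 10). Neural crest sums were 137 to 182, 213 to 341 and 493 to 541 CPM in the same order (7 of 8 lower), and hindbrain sums overlapped at 282 to 350, 327 to 330 and 316 to 352 CPM. Head mesenchyme (466 to 518, 418 to 425 and 313 to 333 CPM; 5 of 8 higher) and surface ectoderm (1114 to 1249, 671 to 879 and 460 to 475 CPM; 3 of 8 higher and 3 lower) were the other head tissues. Endothelial sums were 321 to 350, 288 to 323 and 223 to 323 CPM (3 of 7 higher and 1 lower). Erythroid sums were 12.3 to 30.9 CPM in mutant, 6.11 to 237 in heterozygous and 168 to 248 in wild-type libraries. Of the 7 markers 6 were lower in mutant, while 1 passed as lower in the same test. Decidua and trophoblast sums were 7.68 to 111, 2.56 to 6.53 and 4.797 to 316 CPM, with 1 of 8 higher; Prl3b1 was at 0 in every library but wild-type replicate 2, and Tpbpa in both heterozygous libraries and wild-type replicate 1. In whole heads, fewer cells of a type and less RNA per cell cannot be told apart. What part these tissues have in the results below was not tested.

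**Figure D1:**
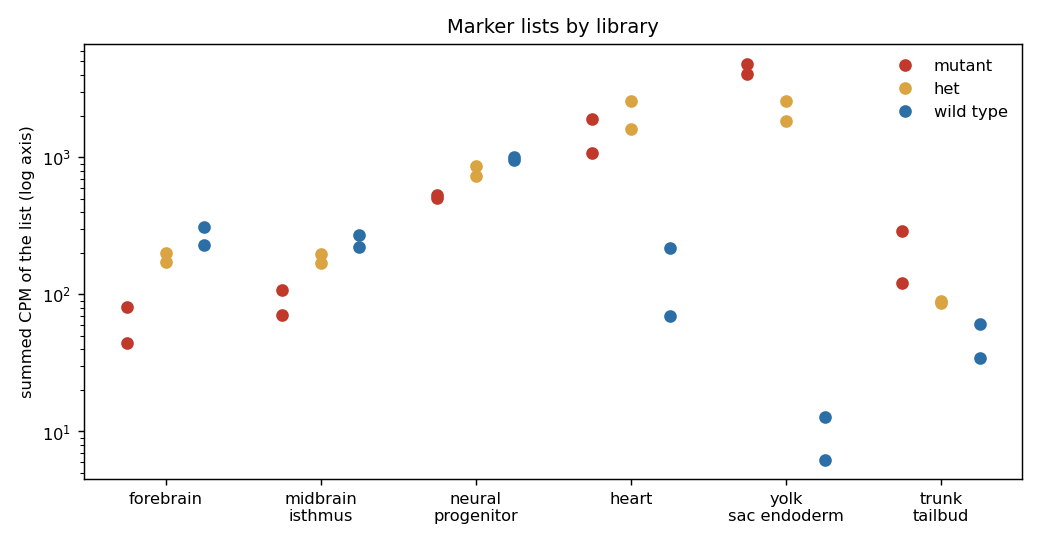
Summed CPM (log axis) of 6 marker lists in each library, mutant left, heterozygous in the middle and wild type right; each point is 1 library. Heart and yolk sac sums of mutant and heterozygous libraries lie above both wild-type libraries (heart 1083 to 1899 CPM in mutant and 69.9 to 216 in wild type), and forebrain sums of mutant libraries lie below (44.3 to 80.7 against 231 to 310 CPM).

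The regions before the RefSeq start of transcription of 3 ligand genes are printed: those of Wnt8b and Wnt1, which both fell in mutant heads, and that of Wnt2, which rose. They do not stand for the ligand genes as a set. Each is the 250 bases before the RefSeq start (GRCm38.p6), on the gene's strand, with any match to the motifs searched in capitals.
Wnt8b, chr19:44493222-44493471, plus strand: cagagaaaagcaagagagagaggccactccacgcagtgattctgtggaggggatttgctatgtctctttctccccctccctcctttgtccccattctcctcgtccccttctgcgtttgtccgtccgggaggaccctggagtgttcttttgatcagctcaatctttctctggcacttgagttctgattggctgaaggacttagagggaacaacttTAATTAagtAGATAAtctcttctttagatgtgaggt
Wnt1, chr15:98789607-98789856, plus strand: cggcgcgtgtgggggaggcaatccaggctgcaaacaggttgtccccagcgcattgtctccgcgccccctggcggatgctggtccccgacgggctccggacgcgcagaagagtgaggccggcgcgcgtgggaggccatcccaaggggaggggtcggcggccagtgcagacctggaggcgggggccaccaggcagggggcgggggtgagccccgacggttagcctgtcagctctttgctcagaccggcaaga
Wnt2, chr6:18030446-18030695, minus strand: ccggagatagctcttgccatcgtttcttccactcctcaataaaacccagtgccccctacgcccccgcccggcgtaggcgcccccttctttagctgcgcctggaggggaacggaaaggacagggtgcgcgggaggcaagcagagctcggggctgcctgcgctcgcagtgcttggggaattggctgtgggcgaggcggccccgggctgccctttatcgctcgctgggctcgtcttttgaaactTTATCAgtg

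The Wnt8b window had 5 CpG pairs and 48.4% G or C, against 23 and 71.6% at Wnt1 and 20 and 63.6% at Wnt2. Its share of G or C was the lowest of all member windows. Over the 24 members with a window the median was 71.8% G or C and 23.5 CpG pairs, against 52.0% and 6 over 27025 genes. Motifs were searched on both strands and none of the matches overlap. The homeodomain core TAATTA occurred at Wnt8b alone, in 1 of 24 members and in 4.90% of all windows, and a GATA motif, AGATAA, also lay there (2 of 24 members, 10.3% of all windows). The other GATA form, TGATAA, was found at Wnt2 (1 of 24 members, 8.16% of all windows), where it reads TTATCA on the printed strand. The TCF/LEF motif CTTTGAT was in windows of 2 of 24 members (3.23% of all), CTTTGTT, read by TCF/LEF and Sox proteins, in 1 (4.99%), and the Otx motif TAATCC in 2 (6.38%). A member counted if any of its windows matched, but the share over all genes used 1 window per gene, so the measures are unlike. The CTTTGAT members were Wnt11 and Wnt5b, with 2 and 3 windows. The matching Wnt5b window starts 94961 bases from the GENCODE start, and the Wnt11 window with the Otx motif 3733 bases from it. Wnt1 held none of the 6 motifs. A match is a description of these letters only. The Wnt2 start in RefSeq lies 140 bases downstream of that in GENCODE. The last 140 bases of the printed Wnt2 window, TTATCA among them, therefore lie inside the gene as GENCODE places it.

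In mutant heads Wnt8b, Wnt9b, Wnt3a and Wnt1 fell and Wnt2, Wnt8a, Wnt11, Wnt2b and Wnt5a rose. Of the receptors, Fzd3, Fzd5 and Fzd9 fell and Fzd4, Lrp5 and Ryk rose. Of the 34 members, 33 had enough counts to be tested, and Wnt10a did not (3 and 7 counts in mutant, 3 and 4 in heterozygous, 8 and 40 in wild-type libraries). In mutant against wild type 8 rose and 7 fell at an adjusted p under 0.05 in edgeR's quasi-likelihood test, while 18 did not pass. Over all 15187 genes tested 30.6% passed, 17.1% higher and 13.6% lower. The members' median log2 fold change was -0.03, against -0.02 over all genes. Fewer members passed without either mutant library or without wild-type replicate 1. The share of all genes that passed fell with every library left out. Fzd3, Fzd4, Lrp5, Wnt2b and Wnt5a passed each time. With the files as attached 0 members and 0% of all genes passed, and 1 member had an unadjusted p under 0.05. With a term for high Xist counts 10 members passed, against 16.5% of all genes. Wnt3a (-1.38, adjusted p = 0.0558), Wnt8a (3.27, adjusted p = 0.133), Fzd5 (-1.17, adjusted p = 0.103), Ryk (0.30, adjusted p = 0.0723) and Wnt1 did not. These values lie close to those without wild-type replicate 1, so the 2 settings are not separate checks. By limma on RPKM without a filter 13 members passed, against 21.6% of all genes. Wnt1 (-1.93, adjusted p = 0.0588) and Wnt8a (3.31, adjusted p = 0.0502) did not. The authors' deposited table lists a false discovery rate under 0.05 for 16 members, the same 15 and Wnt7b (log2 fold change -1.43, false discovery rate 0.0425). That list comes from the same libraries and is not a separate check. Its share over all genes is not given here.

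**Figure D2:**
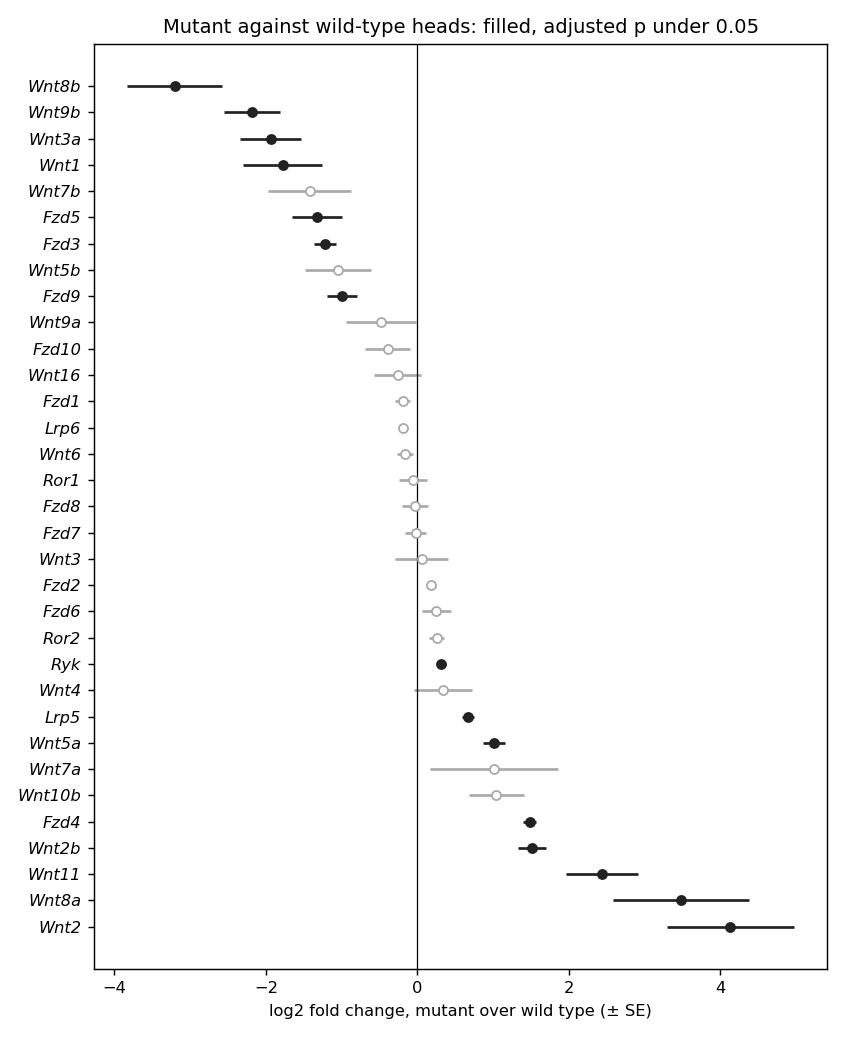
Log2 fold change, mutant over wild type, of the 33 tested members with its standard error (bars); filled points passed at an adjusted p under 0.05. Values run from -3.20 for Wnt8b to 4.14 for Wnt2, with 7 filled points below 0 and 8 above.

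Among the 19 ligands 4 fell, 5 rose and 9 of the 18 tested did not pass. Wnt8b, a ligand gene of the dorsal forebrain, had the lowest log2 fold change. It stood at 0.423 and 0.282 RPKM in the mutant libraries, 0.841 and 2.38 in the heterozygous libraries and 4.45 and 2.14 RPKM in the wild-type ones. Both mutant libraries lay below the other 4. Its log2 fold change of -3.20 (SE 0.63) had an adjusted p of 0.0153; it missed the threshold without mutant replicate 1 (-3.53, adjusted p = 0.0699), without mutant replicate 2 (-2.96, adjusted p = 0.0824) and without wild-type replicate 1 (-2.57, adjusted p = 0.0506). Beside it, the forebrain sum was 80.7 and 44.3 CPM in mutant, 174 and 200 in heterozygous and 310 and 231 CPM in wild-type libraries; its part in the Wnt8b result was not tested.

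Wnt1, the ligand of the midbrain and isthmus that is required for midbrain formation, was at 5.43 and 1.78 RPKM in mutant, 8.51 and 11.3 in heterozygous and 15.6 and 9.49 RPKM in wild-type libraries. Mutant and wild-type values did not overlap, yet each pair differed by over 6 RPKM in wild type and over 3 in mutant. Its log2 fold change of -1.77 (SE 0.52) had an adjusted p of 0.0496, just under the threshold. It was -2.81 without mutant replicate 1 (adjusted p = 0.0219) and -1.21 without mutant replicate 2 (adjusted p = 0.0864), and missed the threshold also without wild-type replicate 1 (-1.36, adjusted p = 0.169), heterozygous replicate 1 (adjusted p = 0.0800) and heterozygous replicate 2 (adjusted p = 0.0824). With the Xist term, not a separate check from leaving out wild-type replicate 1, it was -1.37 (adjusted p = 0.163). The midbrain and isthmus sum was 108 and 70.3 CPM in the same mutant libraries, 170 and 199 in the heterozygous and 270 and 223 CPM in the wild-type ones, and in mutant and wild type the library with less Wnt1 also had the lower sum.

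Wnt3a, a ligand of the dorsal neural tube and the tailbud, was at 0.644 and 0.421 RPKM in mutant, 1.28 and 1.69 in heterozygous and 2.71 and 1.41 RPKM in wild-type libraries. It fell by 1.93 on the log2 scale (SE 0.40, adjusted p = 0.0181) in the same mutant libraries whose trunk and tailbud markers were higher. The call was lost without mutant replicate 1 (-2.28, adjusted p = 0.0584), mutant replicate 2 (-1.67, adjusted p = 0.0865) or wild-type replicate 1 (-1.37, adjusted p = 0.0622). Wnt9b, a ligand of facial ectoderm and later of kidney ducts, was at 0.304 and 0.399 RPKM in mutant, 0.550 and 1.10 in heterozygous and 1.51 and 1.68 RPKM in wild-type libraries. All 6 libraries were in genotype order, with a log2 fold change of -2.18 (SE 0.37, adjusted p = 0.0102; -1.99 and adjusted p = 0.0653 without mutant replicate 1).

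The ligands Wnt7b and Wnt5b did not pass. Wnt7b, expressed in the forebrain and in surface ectoderm, was at 0.598 and 0.955 RPKM in mutant, 0.508 and 1.56 in heterozygous and 2.40 and 1.77 RPKM in wild-type libraries (log2 fold change -1.42, SE 0.54, adjusted p = 0.0986). It passed with DESeq2 (adjusted p = 0.0415) and without either heterozygous library. Wnt5b was at 1.67 and 3.60 RPKM in mutant, 2.30 and 4.42 in heterozygous and 5.78 and 5.12 RPKM in wild-type libraries (-1.05, SE 0.44, adjusted p = 0.123). Wnt5b moved to -0.59 (adjusted p = 0.384) without mutant replicate 1 and to -1.70 (adjusted p = 0.0631) without mutant replicate 2.

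The 5 ligands that rose were Wnt2, Wnt8a, Wnt11, Wnt2b and Wnt5a. Wnt2, a ligand of the early heart field and lung mesoderm, was at 21.4 and 13.6 RPKM in mutant, 13.6 and 13.8 in heterozygous, and 1.81 and 0.135 RPKM in wild-type libraries, where it rested on 158 and 10 counts. Its level in every mutant and heterozygous library was above both wild-type libraries. It rose by 4.14 on the log2 scale (SE 0.84, adjusted p = 0.0169). The value was 7.03 without wild-type replicate 1 and 3.27 without wild-type replicate 2, and missed the threshold without mutant replicate 1 (3.77, adjusted p = 0.0766). In wild-type replicate 1, which had more Wnt2 than replicate 2, the heart sum was 216 CPM, against 69.9 in replicate 2. Mutant replicate 1, also with more Wnt2, had 1899 CPM, against 1083 in mutant replicate 2. The heterozygous libraries had nearly equal Wnt2 and heart sums of 1620 and 2578 CPM. What part heart tissue has in the Wnt2 result was not tested.

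Wnt8a, a ligand of the primitive streak and, briefly, of the hindbrain, varied widely within genotypes. It was at 13.0 and 29.3 RPKM in mutant, 19.2 and 3.15 in heterozygous and 1.61 and 2.19 RPKM in wild-type libraries. Heterozygous replicate 1 lay within the mutant range and heterozygous replicate 2 close to wild type, while their trunk and tailbud sums were alike (86.3 and 89.0 CPM). The mutant library with more Wnt8a had the higher trunk and tailbud sum (288 against 121 CPM), and the wild-type library with more Wnt8a had the lower one (34.3 against 60.4 CPM). It rose by 3.48 on the log2 scale (SE 0.89, adjusted p = 0.0338). Without any 1 of the mutant or wild-type libraries the call was lost: 3.96 (adjusted p = 0.0633) and 2.78 (adjusted p = 0.119) without mutant replicates 1 and 2, and 3.29 (adjusted p = 0.132) and 3.71 (adjusted p = 0.0901) without wild-type replicates 1 and 2.

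Wnt11, which acts on cell movement and in heart development, was at 2.32 and 1.61 RPKM in mutant, 1.44 and 1.89 in heterozygous and 0.522 and 0.198 RPKM in wild-type libraries. It rose by 2.44 on the log2 scale (SE 0.48, adjusted p = 0.0151; 2.16 and adjusted p = 0.0732 without mutant replicate 1, 3.33 without wild-type replicate 1, 1.91 without wild-type replicate 2). Wnt2b, close kin of Wnt2, was at 3.58 and 2.72 RPKM in mutant, 1.82 and 1.96 in heterozygous and 1.08 and 1.14 RPKM in wild-type libraries. Its 3 genotypes did not overlap, and it rose by 1.51 (SE 0.18, adjusted p = 0.00387). Wnt5a, the main ligand of Ror2 and of tissue elongation, was at 12.6 and 12.2 RPKM in mutant, 8.05 and 9.31 in heterozygous and 6.98 and 5.36 RPKM in wild-type libraries, again without overlap between genotypes (log2 fold change 1.02, SE 0.14, adjusted p = 0.00593).

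**Figure D3:**
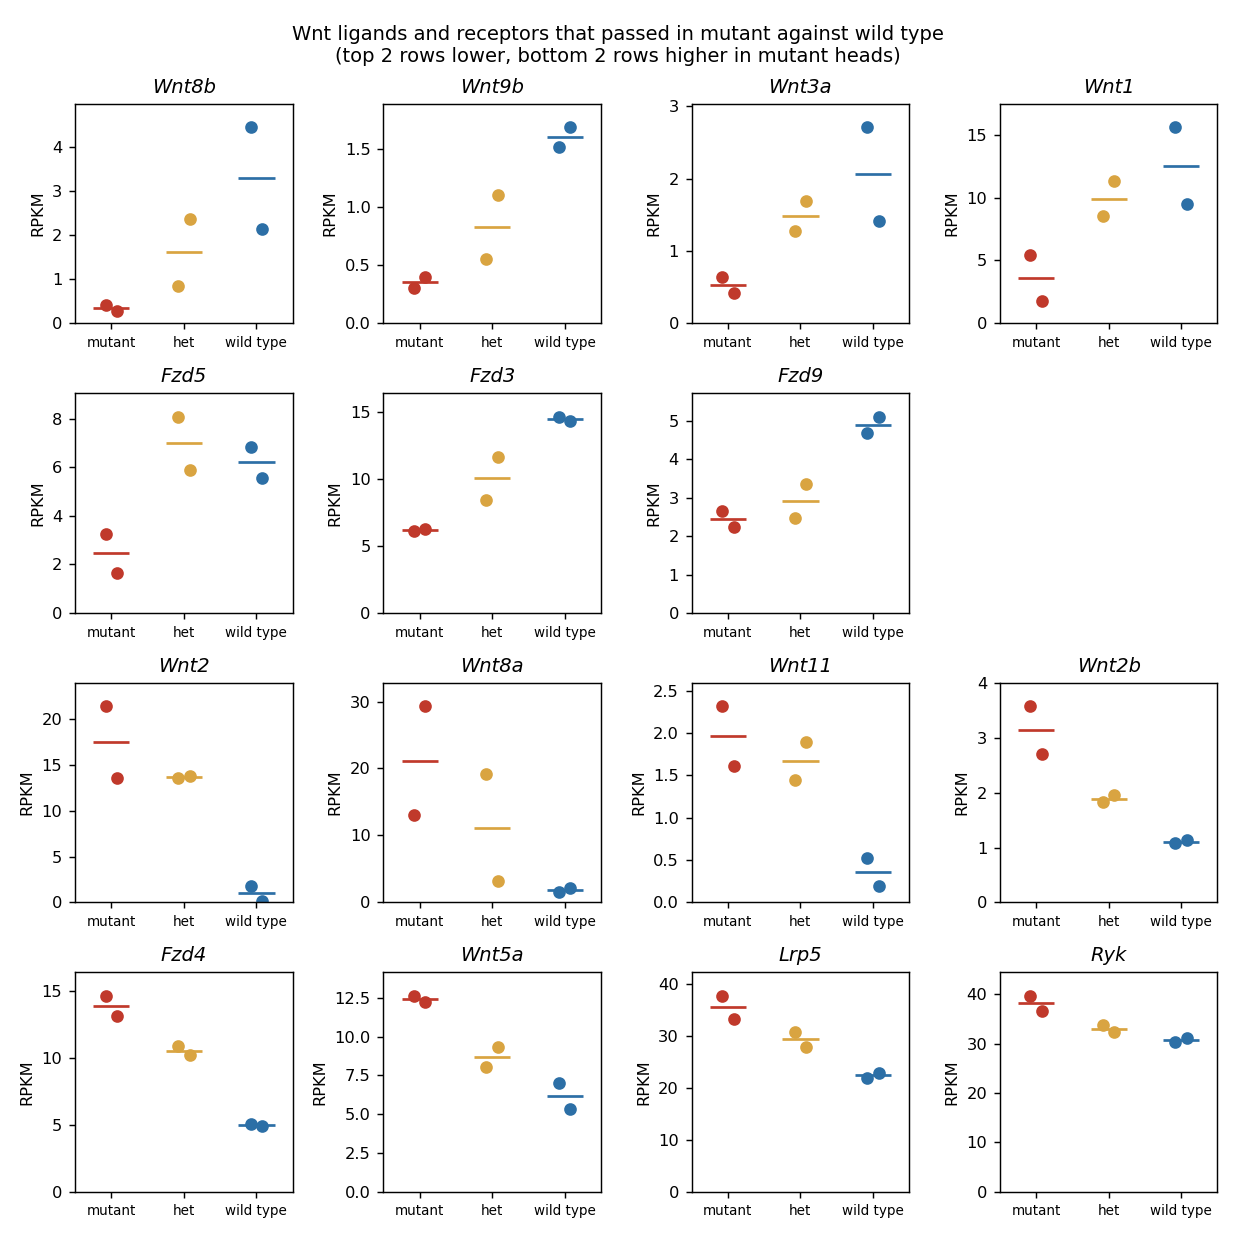
RPKM of the 15 members that passed in mutant against wild type, in each library (points) with the mean of each genotype (lines); every axis starts at 0. The top 2 rows hold the 7 genes lower in mutant heads and the bottom 2 rows the 8 higher ones; mutant and wild-type points do not overlap in any panel, and Wnt8a spans 3.15 to 19.2 RPKM within the heterozygous pair.

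The other ligands did not pass. Wnt6, a surface ectoderm ligand, was at 7.68 and 9.17 RPKM in mutant, 7.54 and 7.30 in heterozygous and 9.33 and 9.61 RPKM in wild-type libraries (log2 fold change -0.16, SE 0.11, adjusted p = 0.303). Wnt4 was at 2.01 and 1.90 RPKM in mutant, 1.13 and 0.998 in heterozygous and 0.940 and 2.18 RPKM in wild-type libraries (0.34, SE 0.38, adjusted p = 0.543); without wild-type replicate 2 it passed as higher, at 1.05 (adjusted p = 0.0266). Wnt10b had a log2 fold change of 1.04 (SE 0.36, adjusted p = 0.0776), and Wnt3, Wnt7a, Wnt9a and Wnt16 lay between -0.48 and 1.02 with adjusted p of 0.399 to 0.918. Those 5 and Wnt10a had at most 1.02 RPKM in any library.

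Summed over the 19 ligands, transcripts came to 74.1 and 80.6 RPKM in mutant, 69.8 and 63.3 in heterozygous and 57.3 and 44.6 RPKM in wild-type libraries, with both mutant sums above both wild-type sums. Wnt1 gave 7.33% and 2.21% of the sum in mutant, 12.2% and 17.8% in heterozygous and 27.2% and 21.3% in wild-type libraries. For Wnt2 the shares were 28.9% and 16.9% in mutant, 19.5% and 21.8% in heterozygous and 3.17% and 0.302% in wild-type libraries, and for Wnt8a 17.6% and 36.4%, 27.5% and 4.98%, and 2.82% and 4.91%. By mean RPKM the leading ligands were Wnt8a, Wnt2 and Wnt5a in mutant heads and Wnt1, Wnt6 and Wnt5a in wild-type heads. Wnt1 and Wnt6 changed places between the 2 wild-type libraries, and Wnt8a and Wnt2 between the 2 mutant ones, so these neighbours did not differ beyond their spread. Wnt5a was the third in both mutant and both wild-type libraries. These levels are descriptions, with no test.

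**Figure D4:**
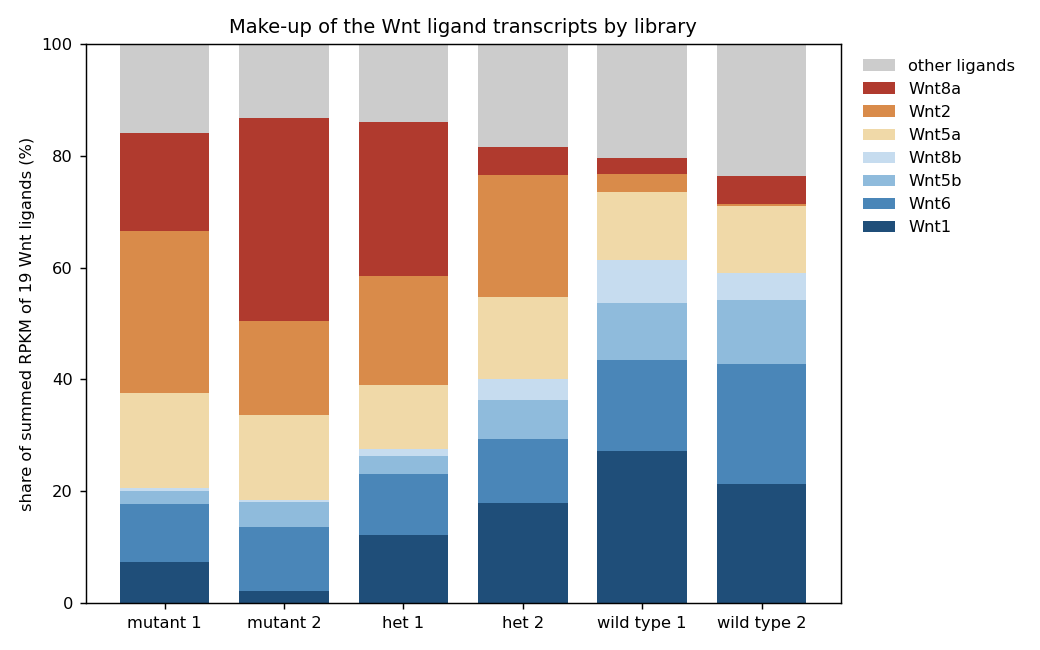
Share of the summed RPKM of the 19 Wnt ligands given by each of 7 ligands and by the other 12 together, per library. Wnt2 and Wnt8a together take the largest part of the mutant bars (Wnt2 28.9% and 16.9%, Wnt8a 17.6% and 36.4%) and Wnt1 and Wnt6 that of the wild-type bars (Wnt1 27.2% and 21.3%).

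In the genome (GRCm38) 4 pairs of Wnt genes lie next to each other, and in 3 of them 1 gene passed and its neighbour did not. Wnt1 (chr15:98789857-98793837, plus strand) starts 11.7 kb from Wnt10b (chr15:98770712-98778150, minus strand), with log2 fold changes of -1.77 and 1.04. Wnt3a (chr11:59248033-59290752) and Wnt9a (chr11:59306928-59333552) are 16.2 kb apart and had -1.93 and -0.48. The gap between Wnt9b (chr11:103727364-103749821) and Wnt3 (chr11:103774150-103817957) is 24.3 kb, and their values were -2.18 and 0.06. Wnt6 and Wnt10a, 6.19 kb apart on chromosome 1, form the fourth pair, of which Wnt10a was not tested. The differences within pairs were not tested.

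Of the 10 Frizzled receptors, 3 fell and 1 rose in mutant against wild type, and 6 did not pass. Fzd3, a receptor known for axon guidance and planar polarity, was at 6.14 and 6.25 RPKM in mutant, 8.43 and 11.6 in heterozygous and 14.6 and 14.4 RPKM in wild-type libraries. The replicates of both homozygotes were nearly equal, and Fzd3 fell by 1.22 on the log2 scale (SE 0.14, adjusted p = 0.00380). Fzd5, a receptor needed in eye development and in the yolk sac, was at 3.24 and 1.66 RPKM in mutant, 8.09 and 5.90 in heterozygous and 6.85 and 5.57 RPKM in wild-type libraries. The heterozygous values overlapped wild type, and only the mutant pair was low, with a log2 fold change of -1.33 (SE 0.33, adjusted p = 0.0308). Without mutant replicate 1 it was -1.89 (adjusted p = 0.0193), and it was lost without mutant replicate 2 (-0.94, adjusted p = 0.0637) or wild-type replicate 1 (-1.15, adjusted p = 0.107). Exons of Fzd5, Fzd6, Wnt5a, Wnt7b and Wnt11 overlap another annotated gene on the opposite strand; the strand setting of the counting is not given, so their values are less certain.

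Fzd9 was at 2.64 and 2.23 RPKM in mutant, 2.46 and 3.35 in heterozygous and 4.68 and 5.12 RPKM in wild-type libraries. Its heterozygous libraries sat nearer to the mutant pair, and it fell by 0.998 on the log2 scale (SE 0.20, adjusted p = 0.0164). It missed the threshold without mutant replicate 1 (-1.13, adjusted p = 0.0565), mutant replicate 2 (-0.89, adjusted p = 0.0775) or wild-type replicate 1 (-1.05, adjusted p = 0.0508). Fzd4, a receptor of blood vessels that also binds norrin, was at 14.7 and 13.2 RPKM in mutant, 10.9 and 10.2 in heterozygous and 5.09 and 4.92 RPKM in wild-type libraries. It had the smallest p of all members, with a log2 fold change of 1.48 (SE 0.09, adjusted p = 0.000528). Of 7 endothelial markers, 1 rose and 0 fell, with a median log2 fold change of 0.23, and none was at 0 in any library.

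Fzd2 and Fzd7 were the most abundant Frizzled transcripts and did not pass. Fzd2 made up 39.3% and 41.5% of the Frizzled sum in mutant, 37.8% and 38.4% in heterozygous and 35.7% and 35.4% in wild-type libraries. Fzd2 was at 67.9 and 73.2 RPKM in mutant, 67.2 and 64.6 in heterozygous and 59.5 and 65.7 RPKM in wild-type libraries (log2 fold change 0.18, SE 0.07, adjusted p = 0.0929). Fzd7 was at 55.3 and 55.2 RPKM in mutant, 58.5 and 49.98 in heterozygous and 48.8 and 64.0 RPKM in wild-type libraries (-0.02, SE 0.14, adjusted p = 0.927). Fzd2 ranked first and Fzd7 the second in each library. Fzd4 was the third in both mutant libraries and Fzd3 the third in both wild-type libraries. Fzd10 was at 4.81 and 9.23 RPKM in mutant, 5.09 and 6.52 in heterozygous and 9.41 and 9.05 RPKM in wild-type libraries; its log2 fold change of -0.39 (SE 0.30, adjusted p = 0.360) became -0.94 (adjusted p = 0.0336) without mutant replicate 2 and 0.01 without mutant replicate 1. Fzd1, Fzd6 and Fzd8 lay between -0.19 and 0.25 (adjusted p = 0.200 to 0.922).

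Among the co-receptors Lrp5 rose and Lrp6 did not pass. Lrp5 was at 37.7 and 33.3 RPKM in mutant, 30.7 and 27.8 in heterozygous and 21.9 and 22.9 RPKM in wild-type libraries, in genotype order without overlap (log2 fold change 0.67, SE 0.08, adjusted p = 0.00400). Lrp6 was at 14.7 and 14.1 RPKM in mutant, 14.7 and 15.7 in heterozygous and 15.8 and 17.2 RPKM in wild-type libraries (-0.18, SE 0.06, adjusted p = 0.0768; adjusted p = 0.0309 with upper quartile scaling). Ryk, a receptor with an inactive kinase domain, rose by a small amount. It was at 39.8 and 36.6 RPKM in mutant, 33.8 and 32.3 in heterozygous and 30.3 and 31.2 RPKM in wild-type libraries (0.32, SE 0.06, adjusted p = 0.0130), and missed the threshold without mutant replicate 1 (0.26, adjusted p = 0.0582) or wild-type replicate 1 (0.31, adjusted p = 0.0670). The Ror kinases did not pass: Ror2 had a log2 fold change of 0.26 (SE 0.10, adjusted p = 0.0971) and Ror1 of -0.06 (SE 0.18, adjusted p = 0.829).

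Sums over the receptor families gave the total transcript level. Frizzled transcripts summed to 173 and 176 RPKM in mutant, 178 and 168 in heterozygous and 167 and 186 RPKM in wild-type libraries, with overlap. Lrp5 and Lrp6 together were at 52.5 and 47.4 RPKM in mutant, 45.5 and 43.5 in heterozygous and 37.6 and 40.1 RPKM in wild-type libraries. By RPKM both mutant libraries were above both wild-type libraries in 11 of the 33 members tested and below them in 13, or 72.7% without overlap. Over all 15187 genes tested 71.1% did not overlap, 34.1% higher and 36.9% lower, so the members' share was near that of all genes.

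In heterozygous against wild-type heads 1 of 33 members passed, Fzd4, which rose by 1.08 on the log2 scale (SE 0.09, adjusted p = 0.00323). Over all genes 6.56% passed, 6.03% higher and 0.533% lower. Several members lay just above the threshold: Lrp5 at 0.39 (SE 0.08, adjusted p = 0.0502), Wnt11 at 2.20 (SE 0.48, adjusted p = 0.0542), Wnt2 at 3.78 (SE 0.83, adjusted p = 0.0571) and Wnt2b at 0.77 (SE 0.18, adjusted p = 0.0667). Without wild-type replicate 1 Wnt2 was at 6.65 (adjusted p = 0.0055) and Wnt11 at 3.07 (adjusted p = 0.0247), both past the threshold, and without wild-type replicate 2 Wnt2 was at 2.92 (adjusted p = 0.0108). Lrp5 passed without mutant replicate 1 (0.40, adjusted p = 0.0435) or mutant replicate 2 (0.39, adjusted p = 0.0471). More members passed without wild-type replicate 1 or heterozygous replicate 2, while the share of all genes that passed fell. With all libraries 13 of 33 members had an unadjusted p under 0.05, as did 3598 of all 15187 genes tested. The brain ligands had wide errors here, with Wnt8b at -1.03 (SE 0.57, adjusted p = 0.329; -0.41 without wild-type replicate 1, -0.47 without heterozygous replicate 1 and -1.97 without heterozygous replicate 2) and Wnt1 at -0.34 (SE 0.50, adjusted p = 0.723). This comparison shares its wild-type libraries with the first.

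In mutant against heterozygous heads 0 of 33 members passed in edgeR's quasi-likelihood test, against 0.435% of all genes, 0.0724% higher and 0.362% lower. An unadjusted p under 0.05 was found for 11 of 33 members and for 3228 of all 15187 genes tested. DESeq2 passed 9 members, against 8.65% of all genes, and the likelihood ratio test 3, against 5.27%. The smallest adjusted p belonged to Fzd3, at -0.69 (SE 0.14, adjusted p = 0.0955), and to Fzd4, at 0.41 (SE 0.08, adjusted p = 0.0955). Fzd3 was at -0.44 (adjusted p = 0.157) without heterozygous replicate 2 and passed at -0.91 (adjusted p = 0.0249) without heterozygous replicate 1. Fzd5 stood at -1.50 (SE 0.33, adjusted p = 0.101), Wnt8b at -2.17 (SE 0.62, adjusted p = 0.139; -1.24 without heterozygous replicate 2) and Wnt2 at 0.36 (SE 0.71, adjusted p = 0.803). Of the 15 members that passed in mutant against wild type, the heterozygous mean lay between the homozygous means in 14, all but Fzd5. That share of 93.3% compares with 92.9% of the 4654 genes that passed.

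Genes elsewhere in the pathway also passed in both directions in mutant against wild type, where 30.6% of all genes passed. Of 6 genes for Wnt release and extracellular handling, 2 rose and 2 fell. Wls is the carrier that takes Wnt proteins to the cell surface. It was at 68.0 and 69.9 RPKM in mutant, 66.5 and 61.9 in heterozygous and 60.4 and 60.7 RPKM in wild-type libraries. Its log2 fold change was 0.19 (SE 0.05, adjusted p = 0.0309). The call was lost without any 1 of the mutant or wild-type libraries (0.17 to 0.22) and with upper quartile scaling (0.15, adjusted p = 0.0697). It was lost also with the Xist term (0.19), which nearly repeats leaving out wild-type replicate 1. Gpc6, a glypican, was at 3.35 and 3.36 RPKM in mutant, 5.88 and 6.68 in heterozygous and 8.48 and 8.48 RPKM in wild-type libraries (-1.33, SE 0.08, adjusted p = 0.000646). Among 16 tested genes of secreted inhibitors and their partners 4 rose and 4 fell. Sfrp5, which binds Wnt proteins, was at 46.4 and 38.1 RPKM in mutant, 46.2 and 31.3 in heterozygous and 6.32 and 5.40 RPKM in wild-type libraries (2.86, SE 0.22, adjusted p = 0.00105). Kremen1 (-0.53, SE 0.09, adjusted p = 0.00844) and Sfrp2 (-0.96, SE 0.15, adjusted p = 0.00888) were lower.

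The R-spondin list held R-spondin and Lgr genes, enhancers of Wnt reception, and also Rnf43 and Znrf3, which belong to neither family. Of its 8 tested genes 2 were higher, Rspo3 and Rnf43, and 3 lower, 2 R-spondins among them. Those were Rspo2 (log2 fold change -3.25, SE 0.38, adjusted p = 0.00374) and Rspo1 (-2.42, SE 0.42, adjusted p = 0.0110). Rspo2 was low throughout, at 0.567 and 0.546 RPKM in the wild-type libraries. Rspo3 was at 2.97 and 4.48 RPKM in mutant, 1.93 and 1.63 in heterozygous and 0.598 and 0.535 RPKM in wild-type libraries (log2 fold change 2.72, SE 0.26, adjusted p = 0.00197). Of 14 cytoplasmic genes 0 rose and 5 fell. Ctnnb1, beta-catenin itself, was at 263 and 264 RPKM in mutant, 305 and 286 in heterozygous and 325 and 336 RPKM in wild-type libraries (log2 fold change -0.32, SE 0.05, adjusted p = 0.00911; 0.0507 without mutant replicate 1), and Gsk3b, the kinase that marks it for breakdown, fell by 0.32 as well (SE 0.04, adjusted p = 0.00443). The nuclear list had 1 of 12 higher and 3 lower; Tle4, a corepressor of TCF proteins, was at 9.02 and 8.69 RPKM in mutant, 12.4 and 14.2 in heterozygous and 18.6 and 18.0 RPKM in wild-type libraries (-1.04, SE 0.09, adjusted p = 0.00123). Of 15 targets 2 rose and 5 fell, among them Axin2, at 18.98 and 20.97 RPKM in mutant, 23.0 and 27.1 in heterozygous and 31.0 and 31.6 RPKM in wild-type libraries (-0.64, SE 0.09, adjusted p = 0.00594). In the planar polarity list 4 of 13 rose and 5 fell, with Vangl1 higher by 0.95 on the log2 scale (SE 0.10, adjusted p = 0.00269). List medians ran from -0.34 to 0.11, against -0.02 over all genes, and several lists share genes.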

How the data were processed

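RNA-seq of 6 mouse embryo head libraries was analysed, 2 for each Prdm15 genotype. The submitters' processing notes name build mm10, edgeR 3.8.6, TopHat2 2.0.11 and HTSeq 0.6.1p2. The sources used here give neither the gene annotation nor the strand setting. Per gene, the authors deposited raw counts, 1 file a library, and 1 table of RPKM values. That deposited table also gives log2 fold changes, log2 average CPM, a likelihood ratio score, p-values and false discovery rates. Its second set of comparison columns, headed All, was not used here; the gene length behind RPKM is not stated. HTSeq's 5 summary lines were left out (8.93% to 10.5% no feature, 1.04% to 1.08% ambiguous, 12.7% to 14.5% not unique).

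Count files were assigned by the title in their names; the match to RPKM columns used genes over 50 counts and a tolerance of 0.1%. Counts were fitted with edgeR 4.0.16 in R 4.3.3 (TMM, filterByExpr, glmQLFit and glmQLFTest) over all 6 libraries, with Benjamini-Hochberg adjustment over 15187 genes and a threshold of 0.05. Where no other tool is named, adjusted p are from this test. The SE of a log2 fold change is its size over the root of the F statistic. Marker sums use library totals. Alternatives were the files as attached, other scalings, filters, DESeq2 1.42.0, the likelihood ratio test, limma 3.58.1 on log2(RPKM + 0.1) and log2(RPKM + 1), a term for libraries with over 10 CPM of Xist, and leaving out each library. Members and lists were chosen with earlier results of these data known. Named are all members, and at most 3 genes with the smallest p of each pathway list. Rnf43 and Znrf3 are named to say what the R-spondin list holds. Positions are from GENCODE M21, promoter windows from RefSeq (GRCm38.p6); 24 of 34 members had one.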

Additional observations from a re-analysis of the deposited data

How the results depend on the processing

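In mutant against wild type the 15 members called became 0 with the files as attached, 10 with a term for high Xist counts, which is also a term for the title series, and 13 to 17 under the other scalings, filters and tools; leaving out single libraries gave 7 to 15. With the files as attached the log2 fold changes of 9 called members changed sign, to -0.13 (Fzd4), 0.0025 (Fzd9), -0.089 (Lrp5), -0.051 (Ryk), -0.66 (Wnt11), -0.77 (Wnt2), -0.28 (Wnt2b), -0.16 (Wnt5a) and 0.20 (Wnt9b), as did those of Gpc6 (0.0017), Sfrp5 (-0.29), Ctnnb1 (0.025) and Axin2 (0.070); the cause is that 2 libraries exchange genotype. Heterozygous against wild type gave 1 member (6.56%), and 0 as attached (0%). It gave 2 with upper quartile scaling (6.89%), with limma on log2(RPKM + 0.1) (7.35%) or with the Xist term (3.4%). Limma on log2(RPKM + 1) gave 3 (6.85%) and no filter 4 (6.17%). The likelihood ratio test gave 6 (10.4%) and DESeq2 8 (12.4%). Mutant against heterozygous gave 9 with DESeq2 (8.65%) and 3 with the likelihood ratio test (5.27%), against 0 (0.435%). Apart from the exchange of files the cause was not tested. By title no call changed sign under any of these alternatives. No paired analysis was possible because the labels give no replicate numbers shared between genotypes; the title series joins 2 mutant and 1 wild-type library and no heterozygous one. With 2 libraries a genotype the fit leaves 3 residual degrees of freedom. The quasi-likelihood test adds to these from the spread over all genes, so its p-values depend on that borrowing. Where a library is left out the lone one is assumed to vary like the others. Ligands with few counts, such as Wnt9a, Wnt16 and Wnt7a, allow no small change to be seen.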
